A study of Mus musculus with 9 samples.

Results

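The miR-29 and miR-30 microRNA families were followed in mouse bone marrow through 7 bead probes, 2 for miR-29 (miR-29b and miR-29c) and 5 for miR-30 (miR-30a, miR-30b, miR-30c, miR-30d and miR-30e), of 582 microRNA (miRNA) probes in all. Members were chosen by name: a probe was taken if its description held the mature mouse name, and probes named for a hairpin, a star strand or a retired entry were left out. Each name matched 1 probe. Bead pools were assigned from the row order of the raw values, and all 7 probes fell in the same pool. Marrow came from 8 mice (female, C57Bl6/J, 6 weeks old). The untreated group held 5 animals, and the other 3 had received 5-fluorouracil (5-FU), an antimetabolite that kills dividing cells, as 1 intraperitoneal dose of 150 mg/kg, with marrow taken at day 4. Red cells were lysed in every sample before RNA was isolated, and after adaptor ligation and PCR the products were bound by beads carrying probes, whose fluorescence was read. Arrays were run in 2 batches, with every untreated animal in batch 1 and every 5-FU animal in batch 2. 5-FU animal 1 was also run in batch 1, and its 2 arrays were averaged. Whole marrow was measured, so fewer cells of a type and less miRNA per cell cannot be told apart.

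A miRNA guides the Argonaute silencing complex to messenger RNAs, mostly through pairing of its seed, bases 2 to 8 from the 5′ end. miR-29 is known for repressing collagens and other extracellular matrix genes, the DNA methyltransferases Dnmt3a and Dnmt3b, and the survival factor Mcl1. The miR-30 family is broadly expressed and is known for targets in autophagy and in epithelial-mesenchymal transition.

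The mature sequences of 5 of the 7 members were matched in RefSeq (GRCm38.p6) and are shown 5′ to 3′ with the seed in capitals, because the seed defines the families and the bases outside it separate the members.
miR-29b: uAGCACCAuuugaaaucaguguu
miR-29c: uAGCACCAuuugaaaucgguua
miR-30a: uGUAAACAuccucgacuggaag
miR-30c: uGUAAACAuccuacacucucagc
miR-30e: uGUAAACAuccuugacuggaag
Among these 5 sequences, seeds were identical within each family and differed at 4 of 7 bases between the families. Counting from the 5′ end without gaps, miR-30a and miR-30e differed at 1 of 22 bases (C13U, the miR-30a base first). miR-29b and miR-29c differed at 3 of 22 (A18G, G21U and U22A), and miR-30a and miR-30c at 5 of 22 (C13A, G14C, G18C, G19U and A20C). Cross-capture between such near-identical members on the beads was not tested. Of 1679 mature mouse names in the RefSeq table, 3 held the miR-29 seed (0.179%) and 4 the miR-30 seed (0.238%). Those 4 were miR-30a-5p, miR-30c-5p, miR-30e-5p and miR-384-5p, which is not a member. No mature sequence of miR-30b or miR-30d was matched there, so neither was counted.

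Several members lie close together in the genome (GRCm38.p6). miR-29b is encoded by a pair of hairpin genes, at chr1:195037091-195037113 (plus strand, Mir29b-2) and chr6:31063025-31063047 (minus strand, Mir29b-1), and its probe cannot tell these copies apart. miR-29c lies at chr1:195037600-195037621 (plus strand), with 426 bases between its hairpin and that of Mir29b-2, both inside the long noncoding RNA gene A330023F24Rik. miR-30a lies at chr1:23272274-23272295 (plus strand). miR-30c comes from chr1:23291714-23291736 (plus strand, Mir30c-2) and chr4:120769584-120769606 (minus strand, Mir30c-1). miR-30e lies at chr4:120772660-120772681 (minus strand), with 2983 bases between its hairpin and that of Mir30c-1, and both sit inside the gene Nfyc, which encodes a subunit of the transcription factor NF-Y. Mir30b and Mir30d are neighbours of each other.

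Values below are log2 fluorescence as the authors normalized it, with a floor at 3. No member reached the floor in any animal. Summed raw fluorescence per array ranged from 336483 to 679696 units, and precision is limited by the number of arrays. Of 379 probes tested (limma, Benjamini-Hochberg adjusted p under 0.05), 40.6% were called, 59 higher (15.6%) and 95 lower (25.1%), and the median change was -0.16. This split moved with the scaling. Rescaling the deposited values to an equal total gave 86 higher (22.7%) and 79 lower (20.8%) with a median of -0.02, and centring them on the median of the detected probes gave 165 (43.5%) and 48 (12.7%) with a median of 0.48. From raw values, an equal total gave 28 (7.39%) and 34 (8.97%) with a median of -0.13, quantile normalization 47 (12.4%) and 47 (12.4%), and scaling to the control beads 10 (2.64%) and 9 (2.37%) with a median of -0.06. Among the 158 probes above log2 7 in at least 3 of 8 animals the calls were 11.4% higher and 44.3% lower.

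Against this background both miR-29 probes rose after 5-FU and miR-30d fell, while miR-30a, miR-30b, miR-30c and miR-30e did not pass. The changes were small. Those that passed were between 1.22-fold and 1.27-fold in size. The share called was 3 of 7 members, close to the 40.6% of all tested probes, many of which are dimmer. All members lie above log2 7. When only probes above log2 7 were tested, 1 member was called higher and 0 lower, against 11.4% higher and 44.3% lower of those probes. Groups did not overlap in 4 of 7 members (3 higher, 1 lower), against 49.9% of tested probes (24.3% higher and 25.6% lower).

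**Figure D1:**
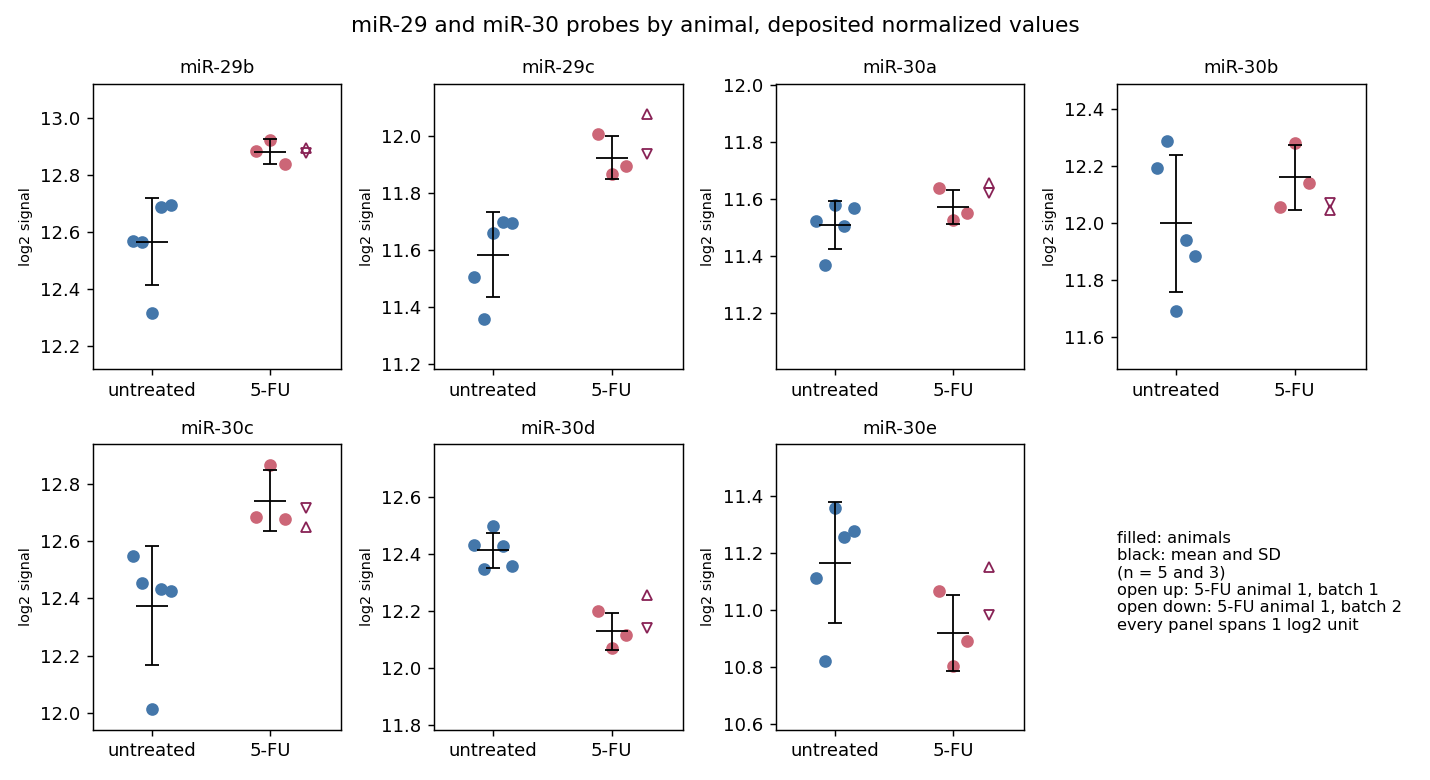
Deposited log2 signal (vertical axis, 1 log2 unit in every panel) of each member by group; filled points are animals, bars are mean and SD, and open triangles are the 2 arrays of 5-FU animal 1. The treated animals lie above all untreated ones for miR-29b, miR-29c and miR-30c and below them for miR-30d.

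For miR-29c the untreated animals 1 to 5 read 11.51, 11.36, 11.66, 11.70 and 11.70, and the 5-FU animals 1 to 3 read 12.01, 11.87 and 11.90. Every treated animal was above every untreated one, and untreated animals 1 and 2 were the low ones. The mean went from 11.58 ± 0.15 (SD, n = 5) to 11.92 ± 0.07 (SD, n = 3), which is 0.34 higher on the log2 scale (SE 0.09, limma adjusted p = 0.0235), or 1.27-fold with a 95% interval of 1.09 to 1.47.

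For miR-29b, which carries the same seed, the untreated animals read 12.57, 12.56, 12.32, 12.69 and 12.70, and the treated animals 12.89, 12.93 and 12.84. The groups again did not overlap, with untreated animal 3 lowest. The mean went from 12.57 ± 0.15 (SD, n = 5) to 12.88 ± 0.04 (SD, n = 3), which is 0.32 higher (SE 0.09, limma adjusted p = 0.0303), or 1.24-fold with a 95% interval of 1.07 to 1.45. Both miR-29 calls rested on each treated animal: with any 1 of the 3 left out, neither probe passed. For miR-29c the limma adjusted p was then 0.0805, 0.0587 and 0.0706 without 5-FU animal 1, 2 and 3, and for miR-29b it was 0.0788, 0.107 and 0.0746. The call of miR-29b also ended without untreated animal 1 (limma adjusted p = 0.0553) or untreated animal 2 (0.0512).

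miR-30d read 12.43, 12.35, 12.50, 12.43 and 12.36 in the untreated animals and 12.20, 12.07 and 12.11 in the treated ones. It is the member with the narrowest spread among untreated animals, and the groups did not overlap. Its mean went from 12.41 ± 0.06 (SD, n = 5) to 12.13 ± 0.06 (SD, n = 3), with a difference of -0.28 (SE 0.05, limma adjusted p = 0.00528), or 1.22-fold lower. The call held with each of the 8 animals left out in turn (changes of -0.32 to -0.26).

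miR-30c had non-overlapping groups but did not pass. The untreated animals read 12.55, 12.46, 12.01, 12.43 and 12.43, and the treated animals 12.68, 12.87 and 12.68. Untreated animal 3 stood apart, 0.41 below the next lowest. The change was 0.37 (95% interval 0.07 to 0.67, limma adjusted p = 0.0550). Without untreated animal 3 it was smaller, 0.28, and passed (limma adjusted p = 0.0152).

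The remaining members overlapped between groups. miR-30a read 11.52, 11.37, 11.58, 11.51 and 11.57 in untreated and 11.64, 11.53 and 11.55 in treated animals, a change of 0.06 (95% interval -0.07 to 0.20, limma adjusted p = 0.402). miR-30b, the neighbour of miR-30d, read 12.19, 12.29, 11.69, 11.94 and 11.89 against 12.06, 12.28 and 12.14, a change of 0.16 (95% interval -0.18 to 0.50, limma adjusted p = 0.405). The treated animals lay inside the untreated range.

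miR-30e, the near-identical relative of miR-30a, read 11.11, 10.82, 11.36, 11.26 and 11.28 in untreated and 11.07, 10.80 and 10.89 in treated animals, a change of -0.25 (95% interval -0.56 to 0.07, limma adjusted p = 0.186). Untreated animal 2 was as low as the treated animals, and without it the change was -0.33 (limma adjusted p = 0.0263). The family medians were 0.33 for miR-29 and 0.06 for miR-30, against -0.16 over all 379 tested probes and -0.19 over the 72 probes of the same bead pool with a mean log2 signal of at least 10. In the authors' deposited table, where the 4 treated arrays were compared with the 5 untreated ones, 4 members had a false discovery rate under 0.05, namely miR-30d (0.00738), miR-29c (0.0112), miR-29b (0.0219) and miR-30c (0.0327). Those 4 treated arrays come from 3 animals, so these rates count both arrays of 5-FU animal 1 as if they were separate animals.

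Batch moved with treatment, since batch 2 held no untreated array. Within batch 1, where the batch 1 array of 5-FU animal 1 stood alone against 5 untreated arrays, the change was 0.49 for miR-29c, 0.33 for miR-29b, 0.28 for miR-30c, 0.15 for miR-30a, 0.05 for miR-30b, -0.015 for miR-30e and -0.16 for miR-30d. The direction of each member was that seen over 8 animals. That fit holds the same untreated arrays and this treated array, so part of the likeness is built in. The size within batch 1 was 6.23% (miR-30e), 28.1% (miR-30b), 55.4% (miR-30d), 75.0% (miR-30c), 103% (miR-29b), 146% (miR-29c) and 232% (miR-30a) of that over 8 animals. 0 of 7 members passed there (limma, adjusted p of 0.223 to 1), against 1.06% of tested probes called higher and 2.11% lower. When the 9 arrays were fitted with batch as a term the changes are the same by construction, since the treated side of each is that 1 animal, and its 2 arrays enter that fit as if they were separate animals, which its p-values do not allow for. There 0 of 7 passed (limma, lowest adjusted p = 0.0710 for miR-29c), against 2.37% called higher and 7.39% lower. At an unadjusted p under 0.05, 1 member (miR-29c) passed within batch 1 and 3 (miR-29b, miR-29c and miR-30d) with batch as a term. The 2 arrays of 5-FU animal 1 differed by 0.016 (miR-29b) to 0.17 (miR-30e) in absolute value, and miR-29c, miR-30a, miR-30d and miR-30e were lower on the batch 2 array by 0.14, 0.03, 0.11 and 0.17.

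The deposited batch 2 values of these probes hold a term that the raw values do not. For batch 1, log2 of raw fluorescence after subtracting the brighter water well, plus 1 constant per bead pool, came close to each normalized column. The SD of the difference was 0.038 to 0.094, taking the raw column that matched best. For the untreated arrays that column was headed with another untreated animal. In batch 2 a further amount per probe, the same on the 3 arrays, was present, with an SD of 0.50 over 180 probes. Relative to the median of the bead pool it was 0.82 for miR-30c, 0.66 for miR-29b, 0.55 for miR-30b, 0.34 for miR-29c, 0.21 for miR-30d, 0.17 for miR-30a and -0.17 for miR-30e. No source used here gives its origin.

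When batch 2 was recomputed from raw values without that term, an alternative chosen after seeing the data, miR-29c gave 0.40 (limma adjusted p = 0.0324) and miR-30a 0.26 (limma adjusted p = 0.0205). In that setting 6.33% of tested probes were called higher and 6.33% lower. miR-30c went from 0.37 to 0.024, miR-29b from 0.32 to 0.11, miR-30d from -0.28 to -0.11, and miR-30e turned from -0.25 to 0.24, none of which passed (limma adjusted p of 0.0965 to 1). Across the 3 scalings of the raw values miR-29c stayed between 0.33 and 0.47 and passed with quantile normalization (limma adjusted p = 0.00455). miR-29b lay between -0.0012 and 0.18 and did not pass in any of them. miR-30d lay between -0.12 and -0.048, and miR-30e between 0.23 and 0.30, passing with quantile normalization (limma adjusted p = 0.0188), opposite in sign to its deposited change. Of the 3 calls, the direction of miR-29c was the same in each scaling, that of miR-29b turned with quantile normalization of the raw values, and that of miR-30d turned with centring of the deposited values (0.36, below the 0.48 of the median probe there).

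**Figure D2:**
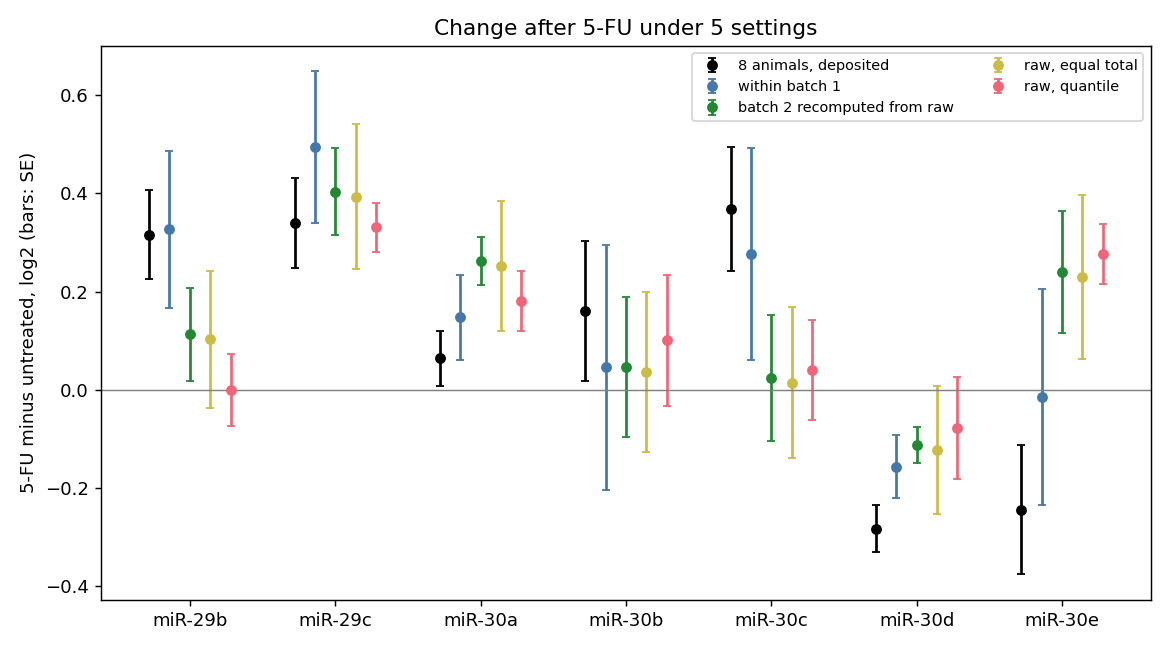
Change after 5-FU (log2, 5-FU minus untreated) of each member under 5 settings, with bars giving the SE of the limma fit. miR-29c lies between 0.33 and 0.49 in each setting shown, while miR-30e runs from -0.25 in the deposited values to 0.28 in quantile normalized raw values.

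In raw fluorescence the members fell into different ranges of response to array brightness. Over the 5 untreated arrays the summed signal of the brightest was 2.02 times that of the dimmest. The same ratio was 1.43 for miR-30b (4067 to 5831.5 units), 1.59 for miR-30c (4574.5 to 7286) and 1.82 for miR-29b (4923 to 8982). It was 2.41 for miR-30d (4219 to 10149), 2.49 for miR-30a (2158 to 5383.5), 2.67 for miR-29c (2136 to 5695) and 3.11 for miR-30e (1486 to 4628). The 3 members with ratios under that of the summed signal are those with the 3 highest batch 2 terms, and their lowest untreated value after normalization was in animal 3 each time. Over the 72 probes of this pool with a mean log2 of at least 10 the median ratio was 2.11. The part of this narrower range in the changes of miR-29b, miR-30b and miR-30c was not tested. The water wells gave 16 to 40 units for these probes and the batch 2 background well 31 to 97. All 5 untreated columns of the normalized table match a raw column headed with another untreated animal, so raw values are given here by group.

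**Figure D3:**
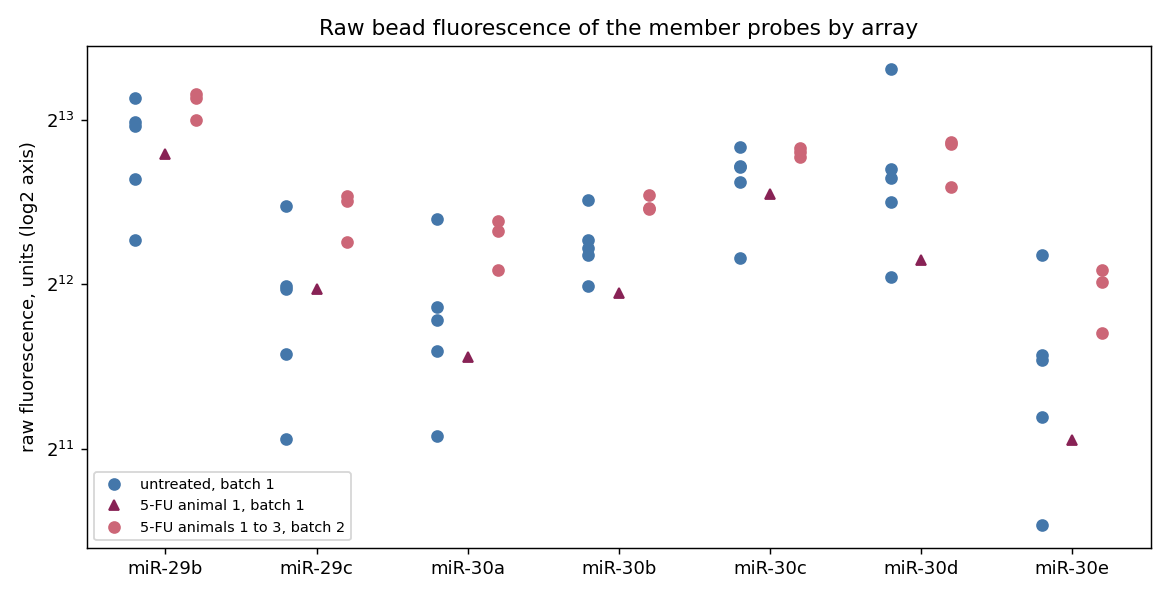
Raw bead fluorescence in units (log2 axis) of each member, with 1 point per array. The untreated points of miR-30b span 4067 to 5831.5 units and those of miR-30e 1486 to 4628.

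Differences between members inside 1 animal are unchanged by 1 scaling constant per array and bead pool, because all 7 probes share a pool. They are not free of the batch 2 term, which differs between probes, or of unequal response to array brightness. They are offsets between probes and not ratios of molecules. miR-29c minus miR-30d was -0.92, -0.99, -0.84, -0.73 and -0.66 in the untreated animals and -0.19, -0.20 and -0.22 in the treated ones. The treated animals were tightly grouped above all untreated ones, with a shift of 0.62, which was 0.65 within batch 1 and 0.52 in the raw values. miR-30a minus miR-30d was -0.91, -0.98, -0.92, -0.92 and -0.79 in untreated and -0.56, -0.54 and -0.56 in treated animals, a shift of 0.35 with 0.30 within batch 1 and 0.38 in the raw values. These 2 miR-30 probes thus changed unequally in each of the 3 readings, which share arrays.

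miR-30a minus miR-30e, the pair that differs at 1 base, shifted by 0.31, with 0.16 within batch 1 and 0.02 in the raw values. miR-29b minus miR-29c was 1.06, 1.21, 0.66, 0.99 and 1.00 in untreated and 0.88, 1.06 and 0.94 in treated animals, a shift of -0.02 with overlap, which was -0.29 in the raw values. miR-30d minus miR-30e shifted by -0.04 in the deposited and by -0.35 in the raw values. In the deposited values the mean of the miR-29 probes minus that of the miR-30 probes was 0.08 to 0.29 in the untreated animals. In the treated animals it was 0.49 to 0.52. This contrast of means was not tested within batch 1 or in the raw values. By pair, miR-29c minus a miR-30 member shifted by 0.22 to 0.65 within batch 1 and by 0.14 to 0.52 in raw values. For miR-29b minus a miR-30 member the shifts were 0.05 to 0.48 within batch 1. In the raw values they ran from -0.15 to 0.23, with mixed sign. Of the 21 pairs of members, taken within and across the families, 9 did not overlap between groups. Among those 72 bright probes of the pool 60.8% of all pairs did not overlap. Unequal change was thus not more frequent among the members, both families together, than among those bright probes. All 9 had the same sign within batch 1, whose arrays are also part of the values over 8 animals. In the raw values 7 of the 9 kept it, and miR-29b minus miR-30a (-0.15) and miR-29b minus miR-30e (-0.13) turned. Over the 21 pairs, 12 kept their sign in the raw values.

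**Figure D4:**
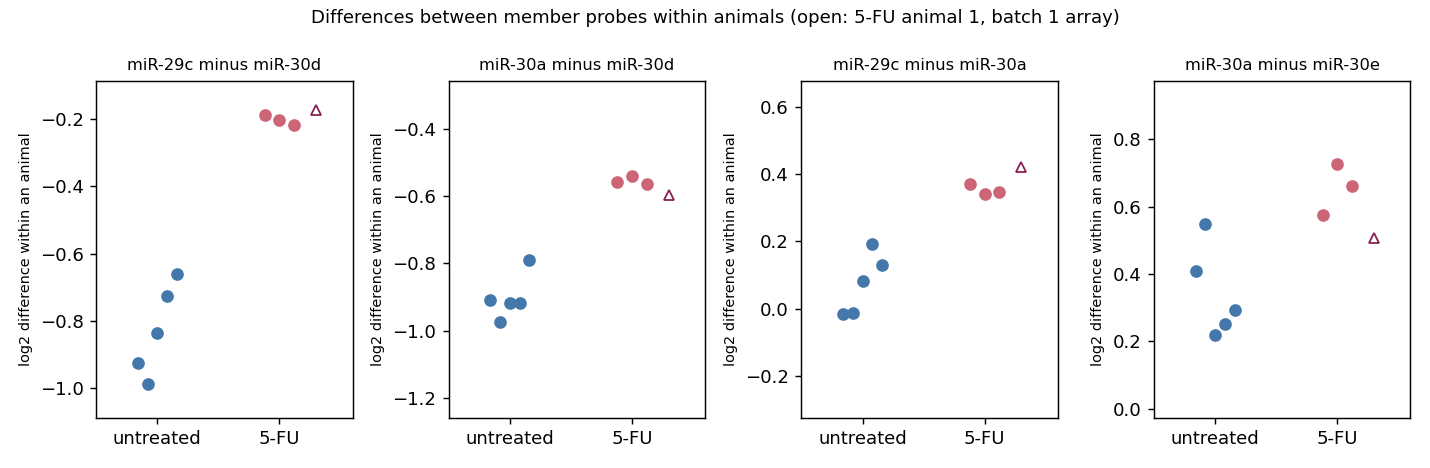
Difference between 2 member probes within each animal (log2, 1 log2 unit per panel) by group; the open triangle is the batch 1 array of 5-FU animal 1. miR-29c minus miR-30d separates the groups by 0.44 at the nearest points, and miR-30a minus miR-30e by 0.02.

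Of the other probes that carry a miR-29 or miR-30 name, 5 were present, each named for a hairpin, and they are kept under that name and not taken for a mature strand. The mir-30a hairpin probe rose. It read 7.08, 6.74, 7.04, 6.59 and 7.01 in untreated and 7.91, 7.43 and 7.38 in treated animals, a difference of 0.68 (SE 0.17; limma adjusted p = 0.0178). The groups did not overlap. Within batch 1 its change was 1.08, from 1 treated array, which gives no spread among treated animals. It was larger in raw values, at 1.31 with an equal total, 1.48 with quantile normalization and 1.39 with the control beads (limma adjusted p of 0.0011, 0.00194 and 0.0353). With batch 2 recomputed it was 1.32 (limma adjusted p = 0.00179). Its deposited batch 2 term was -0.36, and miR-30a, from the same hairpin, gave 0.06.

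The mir-29a hairpin probe also rose, from 11.86 ± 0.23 (SD, n = 5) to 12.36 ± 0.17 (SD, n = 3), a change of 0.50 (limma adjusted p = 0.0323). Its batch 2 term was 1.09, its change was 0.18 within batch 1 and -0.07 from raw values at an equal total, and its 2 arrays of 5-FU animal 1 differed by 0.35. The mir-30e, mir-30d and mir-29b hairpin probes gave 0.08, 0.30 and -0.08 and did not pass (limma adjusted p of 0.402 to 0.910). The mir-30d probe was dim, at 37 to 67.5 raw units in untreated and 65 to 151.5 in treated arrays, and from raw values at an equal total its change was 1.25 (limma adjusted p = 0.00215) while mature miR-30d gave -0.12.

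**Figure D5:**
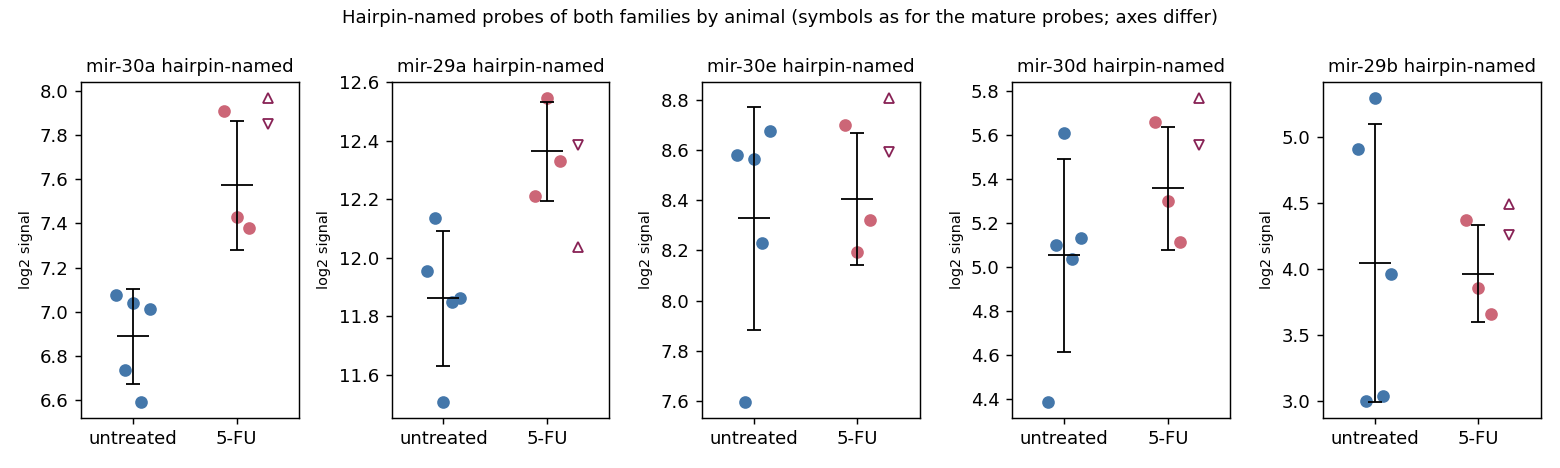
Deposited log2 signal of the 5 hairpin-named probes by group (filled points are animals, bars are mean and SD, open triangles are the batch 1 and batch 2 arrays of 5-FU animal 1; axes differ). The mir-30a hairpin probe is at or below 7.08 in untreated and at or above 7.38 in treated animals.

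Likeness to other miRNAs was measured as the root mean square difference between centred values over the 8 animals, among 147 mature mouse probes above the floor in every animal. Nearest to the miR-29 mean were miR-146a (0.14 on the log2 scale), a brake on innate immune signalling, miR-22 (0.15) and miR-23b (0.18), against a median of 0.50 over the 147. miR-146a rose by 0.56 (limma adjusted p = 0.000698), while miR-22 (0.28) and miR-23b (0.09) did not pass. Nearest to the miR-30 mean were let-7f (0.05), miR-24 (0.09) and miR-23b (0.11), against a median of 0.43, and none of these 3 passed (changes of -0.02, -0.08 and 0.09).

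Other miRNAs known for the same target fields did not move as 1 group. Among 6 tested probes of miRNAs known to act on DNA methyltransferases (miR-143 is also in the stromal list below), 1 rose, 2 fell and 3 did not pass, with a median change of -0.48. miR-143 rose by 1.11 (limma adjusted p = 0.00215). miR-148a and miR-148b, which target Dnmt1 and Dnmt3b, fell by 0.79 and 0.63 (limma adjusted p = 0.0152 and 0.0411), and miR-101b gave -0.67 without passing. Within batch 1 miR-148a and miR-148b gave -0.40 and -0.41, and with batch 2 recomputed -0.48 and -0.24, and neither passed in those settings (limma adjusted p of 0.132 to 0.702). miR-143 gave 1.29 within batch 1 without passing (limma adjusted p = 0.0722) and 1.28 with batch 2 recomputed (limma adjusted p = 0.00300). Among 11 tested probes of miRNAs known in fibrosis or epithelial-mesenchymal transition, 1 rose, 0 fell and 10 did not pass, with a median of -0.04. The rise was that of the muscle miRNA miR-133b, which is also in the skeletal muscle list below, by 1.16 (limma adjusted p = 0.0119), with 1.15 within batch 1, which did not pass (limma adjusted p = 0.348). The matrix-linked miR-214 gave 0.53, the epithelial miR-200a -0.50 and miR-199a-5p 0.42.

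Cell type markers moved beside these changes. The myeloid marker miR-223 was bright in both groups, at 12.72 ± 0.33 (SD, n = 5) and 12.56 ± 0.10 (SD, n = 3). Endothelial (2 of 2), skeletal muscle (3 of 3) and stromal (2 of 4) probes rose and lymphocyte probes (3 of 3) fell in the deposited values. With batch 2 recomputed, 2 of 2, 2 of 3 and 2 of 4 passed higher and 2 of 3 lower, and within batch 1 1 of 2, 0 of 3 and 0 of 4 higher and 2 of 3 lower. The lymphocyte probe that did not pass in either was miR-150, at -0.39 in the deposited values, 0.04 within batch 1 and 0.10 with batch 2 recomputed, with overlapping groups and a gap of -0.58 between the 2 arrays of 5-FU animal 1. The summed endothelial signal was 10.95 to 11.55 in untreated and 12.26 to 12.44 in treated animals on the log2 scale, the stromal signal 10.50 to 11.34 and 11.67 to 11.96, the skeletal muscle signal 12.23 to 13.24 and 13.64 to 13.74, and the lymphocyte signal 13.20 to 13.35 and 12.26 to 12.50. Of the erythroid probes 1 of 3, miR-451, was called lower at -0.70, with summed signals of 14.20 to 14.52 and 13.97 to 14.22. Its change was -0.0058 within batch 1 and -0.12 with batch 2 recomputed, neither of which passed, and the 2 arrays of 5-FU animal 1 differed by -0.95. Epithelial probes summed to 9.88 to 10.68 and 9.48 to 9.87, with 1 of 4 lower (miR-203), which did not pass within batch 1 or with batch 2 recomputed. The hepatocyte miR-122 (3 to 4.07 and 3 to 4.47) and the neural miR-124 (3 and 3.27 to 3.66) were at or near the floor. Of these, miR-124 was called higher (0.40, limma adjusted p = 0.0132), but every untreated animal was at the floor. The part of these cell types in the miR-29 and miR-30 changes was not tested.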

How the data were processed

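Per the series' design text, the deposited normalized log2 values were made by the authors from bead fluorescence assuming that all samples hold the same total of miRNA. Summed without the log, however, the deposited values came to 401283 to 402143 per array in batch 1 and 355655 to 362039 in batch 2. Totals were thus lower on the batch 2 arrays, all of which are from 5-FU animals. Per the file headers, the deposited raw values are fluorescence intensity, with 3 background wells beside them. The deposited p-values and false discovery rates are the authors'. No source used here names upstream software. The series value table holds the same numbers as the normalized one. From these values, 12 control rows were left out and a probe was tested if above the floor of 3 in at least 3 of 8 animals (379 of 582). Groups were compared with limma 3.58.1 (R 4.3.3; lmFit, eBayes, two-sided, Benjamini-Hochberg over the tested probes, threshold 0.05). The approach was tried on simulated data that held no batch difference, no batch 2 term and no scaling difference. Changes planted there were larger than those of the members called. Raw alternatives subtracted the brighter water well and used a floor of 8 units. The genes named are the members, other probes of both families, the 3 nearest patterns per family, up to 4 of each fixed list and the markers. Members and lists were chosen with earlier results of these data known.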

Additional observations from a re-analysis of the deposited data

Results flagged for a closer look

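In the untreated group, miR-30c of animal 3 lay far from the other 4 animals: the gap to its nearest neighbour was 0.771 of the whole range, above the limit of 0.710 for 5 samples. Chance alone sets off this limit in about 1 in 20 groups, and 12 probes of both families were looked at. The normalized column of animal 3 matched best the raw column headed untreated animal 4, which had the highest summed fluorescence (679696.5 units). The part of array brightness in this value was not tested.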

How the results depend on the processing

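The main counts were 2 members higher and 1 lower. The count of members higher was 0 with batch as a term, 0 within batch 1, 0 with an equal raw total, 0 with the control beads and 0 with the replicate block. It was 1 among probes above log2 7, 4 after rescaling the deposited values to an equal total and 5 after centring, and 0 to 3 with 1 animal left out. The count lower was 0 under the same 5 settings, 0 with quantile normalization, rescaling, centring, probes above log2 7 and batch 2 recomputed, and 1 to 2 with 1 animal left out. For miR-29b the call was lost at 0.33 with batch as a term, 0.33 within batch 1, 0.10 with an equal raw total, 0.18 with the control beads, 0.32 above log2 7, 0.40 with the replicate block and 0.11 with batch 2 recomputed, and it turned to -0.0012 with quantile normalization. For miR-29c it was lost at 0.49 with batch as a term, 0.49 within batch 1, 0.39 with an equal raw total, 0.47 with the control beads and 0.42 with the replicate block. For miR-30d it was lost at -0.16 with batch as a term, -0.16 within batch 1, -0.15 after rescaling, -0.12 with an equal raw total, -0.079 with quantile normalization, -0.048 with the control beads, -0.28 above log2 7, -0.30 with the replicate block and -0.11 with batch 2 recomputed, and it turned to 0.36 after centring. miR-30a passed at 0.20 after rescaling, 0.70 after centring and 0.26 with batch 2 recomputed, and miR-30b at 0.80 after centring. miR-30c passed at 0.38 with the batch 2 array alone for 5-FU animal 1, 0.50 after rescaling, 1.01 after centring and 0.37 with trend and robust moderation. miR-30e turned to 0.39 after centring, to 0.23, 0.28 and 0.30 in the 3 raw scalings and to 0.24 with batch 2 recomputed. The cause of these shifts was not tested. With 1 animal left out the changes ran from 0.25 to 0.35 (miR-29b), 0.28 to 0.37 (miR-29c), 0.28 to 0.41 (miR-30c), -0.32 to -0.26 (miR-30d) and -0.33 to -0.19 (miR-30e). Over all tested probes, against 59 higher and 95 lower, the counts were 9 and 28 with batch as a term, 4 and 8 within batch 1, 24 and 24 with batch 2 recomputed, 21 and 74 with the batch 1 array alone for 5-FU animal 1, 18 and 70 above log2 7, 31 and 64 without 5-FU animal 2, 31 and 66 without 5-FU animal 3, and 11 and 41 with the replicate block. A t-test with equal variances over the 8 animals, which does not repeat the authors' comparison of 9 arrays, was also run. After Benjamini-Hochberg adjustment it gave 87 and 88 over all tested probes and 2 and 1 among the members. Same-numbered animals across groups correlated at 0.05, 0.35 and 0.17 in their deviations, and the numbers were not taken to pair them. Low signal limits the mir-30d and mir-29b hairpin probes, which lay near the water wells in raw fluorescence.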
